A study of Homo sapiens with 18 samples.

Results

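HP1γ was depleted from MDA-MB-231 cells that received no dexamethasone (Dex), and their RNA was compared with that of cells given a non-specific siRNA. MDA-MB-231 is an established triple-negative breast cancer (TNBC) cell line, that is, one lacking estrogen and progesterone receptors and HER2 amplification. The comparison took 6 of the 18 libraries of the series, chosen by their labels: 3 of cells transfected with siNS and 3 of cells transfected with siHP1γ (siHP1g in the labels), all treated with the vehicle ethanol (Eth). The other 12 libraries were siNS and siHP1γ cells given 100 nM Dex for 8 h, and siPRMT5 cells under either treatment. All cells carried a transfected siRNA, and 1 SMART-pool per target was used, so that loss of HP1γ and other effects of that pool's sequences cannot be told apart. All cells grew in the same high-glucose medium.

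HP1γ, encoded by CBX3, belongs with HP1α (CBX5) and HP1β (CBX1) to the heterochromatin protein 1 family. Its chromodomain binds the methylated lysine 9 of histone H3, the mark of silent chromatin, and its chromoshadow domain recruits further proteins, among them histone methyltransferases, the nuclear lamina receptor LBR and chromatin assembly factors. HP1γ also lies along transcribed genes and has been described as a coactivator of some nuclear receptors, including the glucocorticoid receptor (GR), in addition to its repressive role. The comparison without Dex asks which transcripts depend on HP1γ in these cells when GR has no added ligand.

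CBX3 itself checked the labels. Its level in CPM, the read count relative to library size with a scaling for library composition, was 274, 234 and 258 in the siNS libraries and 9.23, 9.91 and 10.5 in the siHP1γ libraries. The groups were far apart, and the siHP1γ mean was 3.87% of the siNS mean (log2 fold change -4.69, SE 0.11, adjusted p = 1.2e-20, edgeR's quasi-likelihood test with Benjamini-Hochberg adjustment over 15298 genes, as for every adjusted p here). With 3 libraries a group the exact permutation test cannot give a two-sided p below 0.1, which it gave for CBX3. CBX3 lies on chr7:26201162-26213607 of hg38, on the plus strand, and shares sequence with HNRNPA2B1 on the other strand.

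The related HP1 proteins were not raised. CBX5 (HP1α) measured 152, 140.0 and 153 CPM in siNS and 149.6, 142 and 149.9 CPM in siHP1γ cells, with overlapping groups (log2 fold change -0.011, SE 0.078, adjusted p = 0.93). CBX1 (HP1β) measured 128, 131 and 134 against 109, 118 and 115 CPM and was lower (log2 fold change -0.20, SE 0.067, adjusted p = 0.023), a call that was lost without siNS replicate 3 (log2 fold change -0.20), without siHP1γ replicate 1 (-0.18), and when libraries were scaled by their size alone (-0.14). Among the genes beside CBX3, NFE2L3, a transcription factor of the cap'n'collar family, was higher at 261, 254 and 260.1 against 202, 195 and 201 CPM (log2 fold change 0.37, SE 0.059, adjusted p = 2.9e-05). SNX10 and SKAP2 did not pass the test (log2 fold changes -0.25 and 0.17). HNRNPA2B1, which overlaps CBX3, was 1201, 1215 and 1268 against 1402, 1319.5 and 1376 CPM (log2 fold change -0.15, SE 0.056, adjusted p = 0.038), and this call was lost without siNS replicate 1 or 3 and without siHP1γ replicate 1 or 2.

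Processed pseudogenes of CBX3, which are intronless copies of its mRNA, moved with it. CBX3P9 (chr6:116453014-116453565, minus strand) fell from 40.4, 37.6 and 43.9 CPM to 1.06, 1.03 and 0.721 CPM (log2 fold change -5.43, SE 0.17, adjusted p = 4.6e-18). CBX3P1 (chr11:27806443-27806996, plus strand) had 0.994, 0.612 and 0.518 CPM in siNS cells, 20 counts in all, and no count in any siHP1γ library. The other 6 annotated pseudogenes had too few counts to be tested. The pseudogenes are shown because reads of CBX3 mRNA can be placed on them and their values are therefore uncertain: over the 552 bases of the CBX3 coding sequence, CBX3P9 was 97.5% identical to CBX3 and CBX3P1 94.6%, and 37.6% of the 50-base stretches of CBX3P9 also occurred in a CBX3 transcript, against 3.56% for CBX3P1. The first 150 bases of each follow, 5′ to 3′ on the sense strand of hg38, and in the pseudogenes capitals mark bases that differ from CBX3 or are inserted, 9 in each.
CBX3: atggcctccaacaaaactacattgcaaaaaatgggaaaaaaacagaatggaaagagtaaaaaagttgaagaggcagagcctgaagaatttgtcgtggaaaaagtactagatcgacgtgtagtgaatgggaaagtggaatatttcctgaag
CBX3P9: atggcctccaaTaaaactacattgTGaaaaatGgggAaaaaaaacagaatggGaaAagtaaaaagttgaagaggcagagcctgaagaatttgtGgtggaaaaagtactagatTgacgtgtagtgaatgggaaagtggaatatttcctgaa
CBX3P1: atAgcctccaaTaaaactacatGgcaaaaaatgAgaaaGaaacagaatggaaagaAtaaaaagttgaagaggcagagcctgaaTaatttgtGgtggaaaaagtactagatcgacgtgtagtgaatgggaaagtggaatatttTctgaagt

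Sequencing depth was even. The siNS Eth libraries held 9192643 to 9994871 counts and the siHP1γ Eth libraries 9282074 to 10874249. Replicates were the study's biological replicates and differed by more than sampling noise (chi-square per degree of freedom 2.01 to 5.98 between replicates of a group), the largest distance lying between siNS replicates 1 and 2. Of the markers of the line, PGR had no count in the 6 libraries and ESR1 5 counts in all, ERBB2 was at 24.5, 27.0 and 25.8 CPM in siNS cells, and VIM, the mesenchymal filament vimentin, was at 8015, 8749 and 8301 CPM. Of the 5 tested markers of the line 3 (VIM, CD44 and AXL) were lower and ERBB2 was higher after depletion, the latter lost without siNS replicate 1 or siHP1γ replicate 2. Of 6 leukocyte markers none was abundant enough to be tested (summed 0.311 to 0.883 CPM in siNS, 0.450 to 1.17 CPM in siHP1γ). The 8 epithelial markers summed to 23.7 to 25.4 CPM in siNS and 43.2 to 47.9 CPM in siHP1γ cells. Most of this rise lay in KRT15 (mean 7.51 against 24.2 CPM), which was called higher. Also called were GATA3 (mean 4.74 against 6.54 CPM, log2 fold change 0.47, adjusted p = 0.039, a call lost without siNS replicate 1, 2 or 3 or siHP1γ replicate 2 or 3) and the mucin MUC1 (0.662, 0.510 and 0.518 against 0.954, 1.68 and 1.62 CPM, log2 fold change 1.34). EPCAM was tested and did not pass (log2 fold change 0.16, adjusted p = 0.34). ESRP1 had 32 counts in all and was not tested, and CDH1, ELF5 and TFF1 had 0 or 1 count in all. The 6 endothelial and fibroblast markers summed to 2.65 to 4.69 against 7.21 to 8.06 CPM, with DCN and LUM at 0. In bulk RNA, fewer cells of a type and less RNA per cell cannot be told apart.

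HP1γ depletion changed the level of many transcripts, most of them by little. Of 15298 genes tested, 4860 (31.8%) passed an adjusted p of 0.05, with 2531 (16.5%) higher and 2329 (15.2%) lower after depletion. The median size of a called change was 0.44 on the log2 scale, 621 called genes differed by less than 1.2-fold, and 1507 reached 1.5-fold (813 higher and 694 lower). At 2-fold or more, 254 genes were higher and 216 lower. The CPM of the 3 siHP1γ libraries did not overlap those of the 3 siNS libraries in 6956 genes (45.5%), more than were called. When the libraries were scaled by size alone, the median log2 fold change of all genes moved from 0.013 to 0.069 and the share of higher genes among those called from 52.1% to 63.8%, so that the near balance of the directions depends on the scaling.

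HAS2 was among the transcripts with the largest losses. It encodes hyaluronan synthase 2, the enzyme of the plasma membrane that spins out long chains of hyaluronan, a polysaccharide of the matrix through which breast cancer cells adhere and move. Its level was 55.6, 50.7 and 51.5 CPM in siNS cells and 9.01, 9.73 and 9.55 CPM in siHP1γ cells. Every siHP1γ library lay below every siNS library, at 17.9% of the siNS mean (log2 fold change -2.48, SE 0.11, adjusted p = 1.2e-14). The log2 fold change stayed between -2.51 and -2.34 in every alternative tried, leaving out each of the 6 libraries included. HAS2 is annotated on the minus strand, where it overlaps the antisense gene HAS2-AS1 (0.552, 1.02 and 0.725 against 0.318, 0.374 and 0.811 CPM, log2 fold change -0.58, adjusted p = 0.44), and the strand setting of the counting is not given in the sources used here.

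The rest of the hyaluronan machinery did not follow HAS2. Of 11 tested genes of hyaluronan synthesis, turnover and binding, 2 were lower, HAS2 and its product's receptor CD44, and none was higher. The lower share was 18.2%, near the 15.2% of all genes. CD44, the main surface receptor of hyaluronan, measured 857, 768 and 803 against 711, 668 and 727 CPM (log2 fold change -0.20, SE 0.061, adjusted p = 0.011), and the call was lost without siNS replicate 1 (log2 fold change -0.17) or siHP1γ replicate 2 (-0.17). Without the same libraries the list therefore held HAS2 alone, and without siHP1γ replicate 1 it held 1 higher member, the hyaluronidase HYAL2. The sister synthase HAS3 measured 3.75, 2.96 and 2.59 against 2.76, 2.99 and 2.70 CPM and did not pass (log2 fold change -0.13, adjusted p = 0.71).

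**Figure D1:**
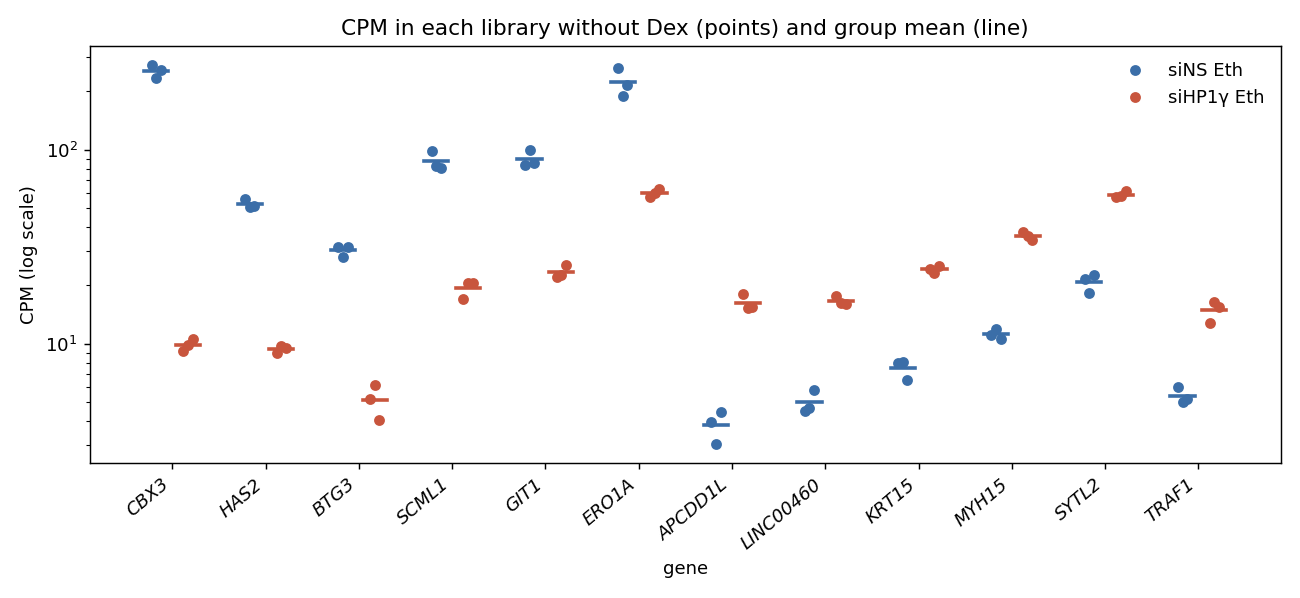
CPM in each of the 3 siNS Eth and 3 siHP1γ Eth libraries (points, log scale) with the group mean (line) for CBX3, HAS2, 4 further genes among the largest decreases and 6 among the largest increases. In all 12 genes the groups do not overlap, and replicates of a group lie close together relative to the distance between groups.

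The largest decreases outside CBX3 and its pseudogenes spanned several functions. BTG3, an antiproliferative protein of the BTG/Tob family, had the steepest, from 31.5, 27.9 and 31.6 CPM to 5.20, 6.17 and 4.05 CPM (log2 fold change -2.56, SE 0.14, adjusted p = 7.0e-13). SCML1, a Polycomb-group related protein, fell from 98.7, 82.8 and 80.5 to 17.1, 20.5 and 20.5 CPM (log2 fold change -2.17, SE 0.12, adjusted p = 1.9e-12). GIT1, a scaffold of focal adhesions that acts on Arf GTPases, fell from 83.2, 99.8 and 85.3 to 22.1, 22.7 and 25.5 CPM (log2 fold change -1.93, SE 0.095, adjusted p = 1.3e-13). In each of these 3 genes every siHP1γ library lay far below every siNS library, as the plotted CPM by library show.

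Others of the 12 largest decreases belonged to the secretory pathway, signalling and RNA processing. ERO1A, the endoplasmic reticulum oxidase that re-oxidizes protein disulfide isomerase, went from 264, 188 and 217 to 57.3, 60.1 and 62.6 CPM (log2 fold change -1.89, SE 0.12, adjusted p = 1.7e-11). ADM, the vasodilator peptide adrenomedullin, went from 51.4, 43.2 and 49.8 to 12.2, 13.4 and 15.2 CPM (log2 fold change -1.82 (SE 0.10)). OSTM1, a partner of a lysosomal chloride transporter, went from 89.4, 68.8 and 78.7 to 21.9, 25.8 and 22.8 CPM (log2 fold change -1.74 (SE 0.12)). CELF2, a regulator of alternative splicing, and DCLK1, a microtubule-associated kinase, had log2 fold changes of -1.79 and -1.76. RELL1, a TNF-receptor related membrane protein, SDHAF2, an assembly factor of succinate dehydrogenase, and the transcript BX322639.1 completed the 12, each falling by 1.90 to 1.94 on that scale. No siHP1γ library overlapped a siNS library in any of them, and each call held when any 1 of the 6 libraries was left out.

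The 12 largest increases started from low levels. APCDD1L, related to an inhibitor of Wnt signalling, rose from 3.97, 3.06 and 4.45 CPM to 18.1, 15.2 and 15.5 CPM (log2 fold change 2.08, SE 0.16, adjusted p = 4.5e-10). KRT15, a keratin of basal epithelial cells, rose from 7.95, 8.05 and 6.53 to 24.3, 23.3 and 25.1 CPM (log2 fold change 1.69, SE 0.16, adjusted p = 1.9e-08). SYTL2, which tethers secretory vesicles to the membrane, rose from 21.5, 18.2 and 22.7 to 57.4, 57.7 and 61.3 CPM (log2 fold change 1.5, SE 0.10, adjusted p = 4.4e-11). All 3 genes were higher in every siHP1γ library than in any siNS library, by 4.24-fold, 3.23-fold and 2.83-fold between means.

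A group of muscle and signalling transcripts accompanied them. The myosin heavy chain genes MYH15 and MYH16 (an inactivated gene in humans) rose from 11.1, 11.9 and 10.6 to 37.9, 36.2 and 34.4 CPM and from 2.98, 4.79 and 3.83 to 11.9, 12.1 and 9.46 CPM, log2 fold changes 1.69 (SE 0.12) and 1.51 (SE 0.21). TRAF1, an adaptor of TNF receptors, rose from 5.96, 4.99 and 5.18 to 12.8, 16.4 and 15.5 CPM (log2 fold change 1.47 (SE 0.15)). F2RL2, a protease-activated receptor, and PTPRH, a receptor tyrosine phosphatase, rose by 1.5 (SE 0.15) and 1.45 (SE 0.17) log2 units. The endocytic receptor CUBN and the cation channel TRPV2 rose by 1.600 and 1.44, and the noncoding LINC00460 and AC025614.3 by 1.73 and 1.45. The highest siNS mean among the 12 was that of SYTL2, at 20.8 CPM.

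Cytokines and the NF-κB factors that drive them were higher. NF-κB proteins (RELA, RELB, NFKB1, NFKB2) bind short κB sites in the promoters of cytokine and chemokine genes and are held back by inhibitors such as NFKBIA. Of 20 tested members of the inflammatory list, 18 were higher after HP1γ depletion, none was lower, and the median log2 fold change was 0.59, against 16.5% of all genes higher and a median over all genes of 0.013. The 2 that did not pass were IL11 (log2 fold change 0.0043, adjusted p = 0.99) and the apoptosis inhibitor BIRC3 (0.29, adjusted p = 0.075). Leaving out any 1 of the 6 libraries left 16 or 17 higher. CXCL1, CXCL2, CXCL3 and CXCL8 are neighbours on chromosome 4, and members of the list are known to share transcription factors, so they are not independent observations.

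Among the chemokines, CXCL8, which attracts neutrophils, measured 26.2, 25.8 and 23.1 CPM in siNS and 40.2, 47.6 and 46.1 CPM in siHP1γ cells (log2 fold change 0.84, SE 0.11, adjusted p = 1.5e-06). CXCL1, of the same class, measured 7.62, 5.91 and 6.94 against 11.5, 13.4 and 11.98 CPM (log2 fold change 0.85, SE 0.16, adjusted p = 1.7e-04). CXCL3 was low, at 1.44, 1.53 and 1.14 against 2.54, 3.55 and 2.97 CPM (log2 fold change 1.14, SE 0.25, adjusted p = 8.0e-04). The groups did not overlap in these 3 genes. CXCL2 had a log2 fold change of 0.68, adjusted p = 0.028, a call lost without siNS replicate 1 or 2 or siHP1γ replicate 3 (0.52, 0.67 and 0.51).

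The cytokine IL6, an activator of STAT3 signalling, rose from 1.99, 1.63 and 2.18 to 4.45, 2.81 and 4.05 CPM (log2 fold change 0.96, SE 0.27, adjusted p = 0.0088). PTGS2, the inducible cyclooxygenase, rose from 1.66, 1.43 and 1.04 to 3.08, 3.09 and 2.97 CPM (log2 fold change 1.15, SE 0.28, adjusted p = 0.0023). ICAM1, an adhesion molecule for leukocytes, rose from 8.72, 9.27 and 8.60 to 16.2, 16.7 and 16.0 CPM (log2 fold change 0.88, SE 0.13, adjusted p = 1.2e-05). Libraries of the groups were again separate, although IL6 and PTGS2 stayed under 5 CPM. IL1A and IL1B rose by 0.53 and 0.55 log2 units, RELB and NFKB2 of the noncanonical NF-κB pathway by 0.87 and 0.83, and the inhibitor NFKBIA by 0.62. With Dex, 13 of the 20 were higher (against 11.7% of all genes in that comparison) and none was lower, with a median of 0.42.

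The promoters of these chemokines carry κB letters close to the start site, and they are shown as a description. RefSeq promoter windows on GRCh38.p14, from 250 bases before to 50 after the start, were searched on both strands for GGANTTTCC. It occurred in 1.64% of all 35116 windows and for 2.01% of genes with a window. Of the 14 higher members with a window, 10 held it, and of the 2 members that did not pass, 0 did. The list consists of inflammatory genes, a class known for κB sites, and was chosen with earlier results of these data known. A share above that of all genes therefore follows from that choice, and 2 members are too few for a contrast. The 130 bases upstream of the start follow, 5′ to 3′ on the gene's strand, with the match in capitals. They were CXCL1 at chr4:73869263-73869392 (+), CXCL3 at chr4:74038690-74038819 (-), CXCL8 at chr4:73740439-73740568 (+) and IL6 at chr7:22727070-22727199 (+), with the match beginning 78, 78, 91 and 72 bases before the start. A match describes the letters and is not evidence of binding in these cells.
CXCL1: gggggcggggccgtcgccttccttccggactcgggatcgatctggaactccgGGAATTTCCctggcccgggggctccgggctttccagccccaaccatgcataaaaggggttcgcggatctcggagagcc
CXCL3: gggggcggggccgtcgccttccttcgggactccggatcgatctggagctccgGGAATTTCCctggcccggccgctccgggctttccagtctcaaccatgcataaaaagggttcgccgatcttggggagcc
CXCL8: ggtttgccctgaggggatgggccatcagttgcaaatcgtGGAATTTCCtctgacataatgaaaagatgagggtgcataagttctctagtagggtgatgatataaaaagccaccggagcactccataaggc
IL6: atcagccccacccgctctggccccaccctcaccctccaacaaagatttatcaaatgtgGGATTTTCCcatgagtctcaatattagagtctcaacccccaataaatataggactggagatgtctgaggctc

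Genes of DNA replication were lower. At the G1/S boundary E2F factors switch on the genes for nucleotide supply, origin licensing by the MCM helicase and the replication machinery. Of 41 tested genes of this list 26 were lower and 4 higher after HP1γ depletion, with a median log2 fold change of -0.33, against 15.2% of all genes lower. Leaving out 1 library left 23 or 24 lower. RRM2, a subunit of ribonucleotide reductase, fell from 172, 153 and 168 CPM to 72.8, 71.8 and 73.2 CPM (log2 fold change -1.18, SE 0.069, adjusted p = 3.7e-12). GMNN, the inhibitor of origin licensing geminin, fell from 96.0, 88.3 and 91.4 to 43.5, 40.1 and 40.4 CPM (log2 fold change -1.15, SE 0.079, adjusted p = 4.8e-11). CCNE2, a cyclin of S-phase entry, fell from 45.2, 42.7 and 46.9 to 21.9, 25.7 and 26.0 CPM (log2 fold change -0.87, SE 0.090, adjusted p = 6.1e-08). The 3 siHP1γ values of each gene lay well under the siNS values.

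The helicase subunit MCM6 fell by 0.81 on the log2 scale, the sliding clamp PCNA and the thymidylate synthase TYMS each by 0.68, and the factor E2F2 by 0.90. The members that rose were not replication enzymes: CCNE1 (log2 fold change 0.49) and CCND3 (0.35) are cyclins, and E2F7 (0.57) is a repressor of E2F targets. The fourth was the activator E2F3 (0.21), whose call was lost without siNS replicate 1, 2 or 3 or siHP1γ replicate 1 or 3. With Dex 20 of the 41 were lower (12.3% of all genes were lower in that comparison) and 4 higher.

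Letters of the E2F type were common in the promoters of the members that were lower. The 8-base forms TTTCCCGC and TTTGGCGC, searched on both strands in the same windows, occurred in 2.27% of all windows and for 2.75% of genes. Among lower G1/S members with a window, 14 of 21 held one, against 1 of 9 that did not pass and 1 of 4 that were higher. For the later G2/M genes, 1 of 14 lower members did. The G1/S list holds genes of the kind that E2F factors switch on, so a share above that of all genes follows from its choice. A match is not evidence of binding in these cells. The 130 upstream bases of 3 members were chosen because each holds the match within 90 bases of a start: MCM6 at chr2:135876444-135876573 (-), PCNA at chr20:5126623-5126752 (-) and the second RefSeq start of GMNN at chr6:24775283-24775412 (+). The other RefSeq windows of PCNA and GMNN held no match, and neither did the 2 windows of RRM2.
MCM6: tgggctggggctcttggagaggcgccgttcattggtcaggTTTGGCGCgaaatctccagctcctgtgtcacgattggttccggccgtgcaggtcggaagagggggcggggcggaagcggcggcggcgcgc
PCNA: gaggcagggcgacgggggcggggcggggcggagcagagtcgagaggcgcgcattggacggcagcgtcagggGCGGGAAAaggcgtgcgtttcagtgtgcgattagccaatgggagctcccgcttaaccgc
GMNN: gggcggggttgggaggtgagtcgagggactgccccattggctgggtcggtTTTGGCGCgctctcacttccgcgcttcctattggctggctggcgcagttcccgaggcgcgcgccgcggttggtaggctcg

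Mitotic genes were also lower more often than higher. Of 29 tested G2/M genes 17 were lower and 1, the mitotic transcription factor FOXM1 (log2 fold change 0.34), was higher, with a median of -0.26. These shares were 58.6% and 3.45%, against 15.2% and 16.5% of all genes. CCNA2, cyclin A2, fell from 182, 165 and 181 to 100.7, 106 and 111 CPM (log2 fold change -0.73, SE 0.079, adjusted p = 1.3e-07). CDC20, an activator of the anaphase-promoting complex, fell from 115, 134 and 124 to 93.4, 83.6 and 88.9 CPM (log2 fold change -0.49, SE 0.089, adjusted p = 1.4e-04). The spindle proteins PRC1 and KIF20A fell by 0.50 and 0.48 on the log2 scale. MKI67, the proliferation marker Ki-67, measured 1319, 1547 and 1357 against 1531, 1254 and 1299 CPM and did not pass (log2 fold change -0.048, adjusted p = 0.83). With Dex, 16 of the 29 were lower, against 12.3% of all genes in that comparison, and none was higher.

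Single regulators of growth arrest and cell death moved in both directions. MDM2, an E3 ubiquitin ligase, fell from 108, 79.4 and 84.7 to 37.2, 37.9 and 36.7 CPM (log2 fold change -1.28, SE 0.11, adjusted p = 4.5e-09). PMAIP1, the BH3-only protein NOXA, fell from 143, 108 and 131 to 59.1, 66.6 and 70.3 CPM (log2 fold change -0.96, SE 0.12, adjusted p = 1.1e-06). BTG2, an antiproliferative relative of BTG3, rose from 6.51, 6.93 and 5.90 to 12.4, 12.9 and 12.8 CPM (log2 fold change 0.98, SE 0.15, adjusted p = 2.6e-05), while BTG3 fell. SESN2 rose by 0.81 and the CDK inhibitor CDKN1A by 0.52 log2 units.

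Cholesterol synthesis was lower along the pathway. Its enzymes convert acetyl-CoA through mevalonate and squalene to cholesterol and are transcribed under SREBP factors when sterols are scarce. Of 27 tested members 16 were lower and 1 higher (59.3% and 3.70%, against 15.2% and 16.5% of all genes), with a median of -0.34. HMGCS1, the first committed synthase, fell from 783, 702 and 718 to 403, 399.9 and 423 CPM (log2 fold change -0.85, SE 0.069, adjusted p = 1.2e-09). The isomerase IDI1 fell from 338, 295 and 307 to 169, 187 and 184 CPM (log2 fold change -0.80, SE 0.082, adjusted p = 5.1e-08). INSIG1, the sterol sensor that retains SREBP in the endoplasmic reticulum, fell from 313, 261 and 275 to 149.6, 147 and 168 CPM (log2 fold change -0.87, SE 0.099, adjusted p = 2.7e-07).

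The sterol carrier STARD4 had the largest decrease in that list, from 174, 127 and 139 to 52.9, 61.1 and 58.8 CPM (log2 fold change -1.34 (SE 0.13)), and the squalene epoxidase SQLE and the demethylase CYP51A1 fell by 0.49 and 0.65 on the log2 scale. Leaving out 1 library left 15 or 16 lower. With Dex 22 of the 27 were lower, against 12.3% of all genes, and none was higher.

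Interferon-stimulated genes, the antiviral program downstream of the interferon receptors, were lower where they changed, with 1 exception. Of 34 tested members 11 were lower and 1 higher (32.4% and 2.94%, against 15.2% and 16.5% of all genes), with a median log2 fold change of -0.31. The higher count was 3 without siNS replicate 1 and 0 without siNS replicate 2 or 3 or siHP1γ replicate 2 or 3. The higher member was IFIT5 (log2 fold change 0.27, adjusted p = 0.016). Among the decreases, IFIT1, which binds foreign RNA caps, fell from 218, 216 and 228 to 118, 116 and 106 CPM (log2 fold change -0.96, SE 0.071, adjusted p = 1.7e-10). IFIT2 fell from 289, 297 and 279 to 159, 169 and 166 CPM (log2 fold change -0.81, SE 0.071, adjusted p = 3.7e-09). OASL fell from 25.7, 33.5 and 35.8 to 13.7, 15.8 and 13.6 CPM (log2 fold change -1.14, SE 0.11, adjusted p = 3.3e-08). The DNA sensor CGAS fell by 0.70 and IFIT3 by 0.67 on the log2 scale. The other 6 lower members were MX1, IFI44, DDX58, HERC5, HERC6 and IFIH1, with log2 fold changes of -1.05, -0.36, -0.34, -0.51, -0.54 and -0.32. The call of MX1 was lost without siNS replicate 2, and that of IFIH1 without any 1 of 5 libraries and when scaled by library size alone. IRF9, a transcription factor of the interferon receptor pathway, did not pass (log2 fold change 0.28, adjusted p = 0.52). With Dex 6 of the 34 were lower and 1 higher, where 12.3% of all genes were lower and 11.7% higher.

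Ribosomal protein transcripts were lower as a group. Of 79 tested genes for cytosolic ribosomal proteins 45 were lower (57.0%, against 15.2% of all genes) and none higher, with a median of -0.27. Leaving out 1 library gave 37 to 47 lower. Their summed level was 29249, 32285 and 32275 CPM in siNS and 27163, 25844 and 24572 CPM in siHP1γ libraries, so that every siHP1γ sum lay below the lowest siNS sum. RPS20, of the small subunit, stood apart with 901, 1018 and 1047 against 393, 429 and 393 CPM (log2 fold change -1.29, SE 0.085, adjusted p = 2.9e-11). RPS19 and RPL21 fell by 0.57 and 0.51 on the log2 scale, and the L22 paralog RPL22L1 by 0.57. These genes have many processed pseudogenes, to which reads can be lost or from which they can be gained: of 191 tested pseudogenes named for a ribosomal protein, 43 were lower and 0 higher. With Dex 33 of the 79 were lower and none higher.

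The GR gene itself did not pass. NR3C1 measured 159.6, 141 and 144 CPM in siNS and 138, 138 and 135 CPM in siHP1γ cells, separate groups that differed by little (log2 fold change -0.11, SE 0.090, adjusted p = 0.36). Among GR's chaperones and coregulators 10 of 20 tested were higher and 3 lower, with a median of 0.21. These shares were 50% and 15%, against 16.5% and 15.2% of all genes, so that the share of lower members was near that of all genes. PTGES3, the HSP90 cochaperone p23 that stabilizes the ligand-binding form of the receptor, had the largest change of the list, from 345, 293 and 315 to 99.0, 99.6 and 122 CPM (log2 fold change -1.57, SE 0.096, adjusted p = 7.4e-12). The stress-inducible HSP90AA1 and the immunophilin FKBP5 also fell, by 0.56 and 0.57 on the log2 scale, while HSP90AB1 did not pass (log2 fold change -0.0046, adjusted p = 0.97).

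The coregulators with a called change were higher. The acetyltransferases EP300 and CREBBP measured 70.5, 91.7 and 75.0 against 138, 114 and 128 CPM and 117, 128 and 118 against 198, 175 and 193 CPM, log2 fold changes 0.68 (SE 0.11) and 0.64 (SE 0.094). CALCOCO1, a coactivator that binds p160 proteins, rose by 0.72, the p160 coactivators NCOA1 and NCOA3 by 0.55 and 0.59 and the Mediator subunit MED1 by 0.47 log2 units. With Dex 1 member of the list of 20 was higher and 3 were lower, where 11.7% of all genes were higher and 12.3% lower. The difference between the effects without and with Dex did not pass for EP300 (-0.56, adjusted p = 0.10) or CREBBP (-0.49, adjusted p = 0.093).

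Glucocorticoid target genes changed in both directions in cells without Dex. Of 27 tested members 8 were higher and 6 lower (29.6% and 22.2%, against 16.5% and 15.2% of all genes), with a median of 0.18. The higher count fell to 4 without siNS replicate 1 or siHP1γ replicate 1, and to 5 without siNS replicate 2 or 3. IGFBP3, which binds insulin-like growth factors, fell from 182, 190.1 and 217 to 93.5, 96.3 and 108 CPM (log2 fold change -0.99, SE 0.072, adjusted p = 1.7e-10). PLAT, tissue plasminogen activator, fell from 37.2, 46.3 and 41.5 to 24.3, 22.4 and 22.1 CPM (log2 fold change -0.87, SE 0.11, adjusted p = 1.1e-06). CCBE1, a secreted protein of lymphatic growth, fell from 35.7, 32.9 and 38.8 to 29.4, 25.2 and 27.0 CPM (log2 fold change -0.40, SE 0.089, adjusted p = 0.0012). These 3 genes were named by the study as migration-related targets, so their direction is not independent of it. The phosphatase DUSP1, FKBP5 and the kinase SGK1 fell by 0.60, 0.57 and 0.36 on the log2 scale, and the clock gene PER1 rose by 0.54. TSC22D3, known as GILZ, did not pass (log2 fold change 0.18, adjusted p = 0.27).

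Of PRMT5 and its partners 3 of 5 tested were lower, against 15.2% of all genes, and none was higher. WDR77, the obligate partner of the arginine methyltransferase PRMT5, fell from 37.0, 33.4 and 35.6 to 18.8, 22.4 and 24.5 CPM (log2 fold change -0.69, SE 0.10, adjusted p = 9.2e-06). PRMT5 fell from 226, 262 and 259 to 211, 206 and 209 CPM (log2 fold change -0.25, SE 0.075, adjusted p = 0.011), a call lost without siNS replicate 2 (log2 fold change -0.22). CLNS1A, another partner, measured 218, 210.5 and 213 against 178, 187 and 184 CPM (log2 fold change -0.22, SE 0.061, adjusted p = 0.0069), a call lost when a trend on GC percent was removed (log2 fold change -0.13). RIOK1 and COPRS did not pass (log2 fold changes -0.029, adjusted p = 0.81 and 0.15, adjusted p = 0.18). Of the methyltransferases named with HP1γ, EHMT1 (GLP) rose from 71.3, 84.8 and 75.2 to 97.6, 94.1 and 94.4 CPM (log2 fold change 0.31, SE 0.083, adjusted p = 0.0060), a call lost without siNS replicate 1 (0.24), and EHMT2 (G9a) was listed at 0 in all 6 libraries. The ribosomal protein gene RPS18 was listed at 0 in all 6 as well. The paper depleted G9a by siRNA in this line and analyzed its protein by immunoblot. A listed 0 therefore does not show that the transcript is absent, and its cause was not tested. The reference genes ACTB and GAPDH did not pass (log2 fold changes -0.083, adjusted p = 0.38 and -0.13, adjusted p = 0.40). Both were called lower when the trend on GC percent was removed (log2 fold changes -0.20, adjusted p = 0.0054 and -0.25, adjusted p = 0.017).

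Among 37 tested genes of H3K9 methylation and HP1 partners 11 were higher and 7 lower (29.7% and 18.9%, against 16.5% and 15.2% of all genes), with a median of 0.068. The higher count fell to 7 without siNS replicate 1 or 3, and the lower count to 4 without siHP1γ replicate 2 or siNS replicate 3. LBR, the inner nuclear membrane receptor that binds HP1, fell from 208, 168 and 181 to 63.5, 69.5 and 79.0 CPM (log2 fold change -1.39, SE 0.12, adjusted p = 4.1e-09). UHRF1, which reads H3K9 methylation at replicating DNA, fell from 36.9, 39.8 and 37.3 to 17.6, 22.5 and 24.6 CPM (log2 fold change -0.81, SE 0.12, adjusted p = 1.1e-05). TASOR, the scaffold of the HUSH silencing complex, fell from 130.5, 121 and 117 to 72.5, 80.0 and 72.0 CPM (log2 fold change -0.72, SE 0.099, adjusted p = 4.5e-06). POGZ, which binds HP1 through a zinc finger, rose from 68.2, 68.1 and 65.5 to 98.9, 96.0 and 100.0 CPM (log2 fold change 0.55, SE 0.078, adjusted p = 6.5e-06). The methyltransferase SETDB1 rose by 0.44 and SUV39H1, which makes the trimethyl mark, did not pass (log2 fold change -0.060, adjusted p = 0.64).

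Matrix and adhesion genes changed in both directions, with more increases. Of 32 tested collagens, laminins and cross-linkers 13 were higher and 3 lower (40.6% and 9.38%, against 16.5% and 15.2% of all genes), with a median of 0.25. The lower count was 1 without siHP1γ replicate 2 or 3. COL1A1 rose from 3.42, 3.57 and 2.69 to 7.74, 7.29 and 7.21 CPM (log2 fold change 1.196, SE 0.19, adjusted p = 3.0e-05), COL27A1 by 1.14 (SE 0.10) and the laminin chain LAMA3 by 0.89 (SE 0.099) log2 units. FN1, fibronectin, rose from 137, 159 and 134 to 244, 207 and 219 CPM (log2 fold change 0.64, SE 0.092, adjusted p = 7.5e-06). Of 15 tested integrins 8 were higher and 4 lower (2 lower without siNS replicate 2): the fibronectin receptor chain ITGA5 rose by 0.61 and ITGAV, which binds vitronectin, fell by 0.63 on the log2 scale. Integrin ITGB3 measured 2.43, 1.73 and 2.28 against 3.39, 5.42 and 4.05 CPM (log2 fold change 1.01 (SE 0.24)).

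Of 23 tested metalloproteases and inhibitors 9 were higher and 4 lower (5 higher without siNS replicate 3). These shares were 39.1% and 17.4%, against 16.5% and 15.2% of all genes. MMP19 rose from 3.09, 2.85 and 4.35 to 8.27, 8.51 and 9.91 CPM (log2 fold change 1.37, SE 0.19, adjusted p = 5.1e-06) and ADAM12, a membrane protease that sheds growth factors, from 3.42, 4.89 and 6.11 to 11.0, 10.5 and 12.3 CPM (log2 fold change 1.22, SE 0.18, adjusted p = 7.9e-06). In the plasminogen system 2 of 9 tested were higher and 4 lower (1 higher without siNS replicate 2): PLAU, the urokinase, rose by 0.47 log2 units, while PLAT and the plasminogen-binding pair ANXA2 and S100A10 fell by 0.87, 0.47 and 0.48. S100A10 measured 591, 471 and 543 CPM in siNS and 412, 352 and 389.9 CPM in siHP1γ cells. In a list that pools mesenchymal and epithelial genes 6 of 19 were higher and 2 lower, counts that fell to 3 higher without siHP1γ replicate 1 and to 1 lower without that library, siHP1γ replicate 3 or siNS replicate 2 or 3. The epithelial keratin KRT7 (log2 fold change 1.14) was among the higher members and the epithelial keratin KRT8 (-0.33) among the lower. These counts therefore do not describe a shift toward either state. SNAI1, a repressor of E-cadherin, rose from 4.08, 5.20 and 6.73 to 9.76, 11.1 and 12.52 CPM (log2 fold change 1.06, SE 0.16, adjusted p = 2.0e-05), while VIM fell from 8015, 8749 and 8301 to 7240.3, 6646 and 6551 CPM (log2 fold change -0.29, SE 0.063, adjusted p = 8.0e-04).

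In TGF-β signalling 12 of 29 tested members were higher and 7 lower (41.4% and 24.1%, against 16.5% and 15.2% of all genes), with a median of 0.32. The latent TGF-β binding protein LTBP1 rose from 12.3, 11.5 and 14.1 to 29.9, 33.3 and 29.4 CPM (log2 fold change 1.29, SE 0.099, adjusted p = 3.4e-10), LTBP3 from 3.97, 4.69 and 3.94 to 8.27, 10.0 and 9.64 CPM (log2 fold change 1.15, SE 0.19, adjusted p = 3.4e-05), and the ligand TGFB3 from 0.331, 1.43 and 1.14 to 2.86, 3.18 and 3.24 CPM (log2 fold change 1.65, SE 0.33, adjusted p = 3.6e-04). The ligand BMP2 fell from 6.29, 7.85 and 5.90 to 2.76, 3.46 and 3.69 CPM (log2 fold change -1.01, SE 0.22, adjusted p = 1.0e-03). Hippo targets and components were mostly lower, 15 of 25 against 6 higher, with a median of -0.31. Both shares, 60% lower and 24% higher, were above the 15.2% and 16.5% of all genes. F3, tissue factor, fell from 203, 181 and 195 to 101.4, 93.3 and 116 CPM (log2 fold change -0.90, SE 0.090, adjusted p = 3.2e-08), ANKRD1, a classic YAP target, from 253, 257 and 273 to 162, 165 and 161 CPM (log2 fold change -0.68, SE 0.065, adjusted p = 1.5e-08), and CCN1, CCN2 and the coactivator YAP1 itself by 0.43, 0.39 and 0.36 on the log2 scale. Of 21 tested EGF receptor genes 6 were higher and none lower (1 lower without siHP1γ replicate 2, and 10 higher when scaled by library size alone). The receptor EGFR did not pass (log2 fold change -0.10, adjusted p = 0.42), and the ERK-responsive factor ETV5 rose by 0.48 (SE 0.093) log2 units.

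Stress and metabolic lists held strong single genes rather than shared shifts. In the ATF4 list 5 of 23 were higher and 6 lower (21.7% and 26.1%, against 16.5% and 15.2% of all genes), with a median of 0.068. STC2, a secreted glycoprotein, rose from 1.44, 1.32 and 0.829 to 4.14, 4.58 and 4.59 CPM (log2 fold change 1.89, SE 0.26, adjusted p = 4.0e-06), and the amino acid transporters SLC7A1 and SLC7A11 fell by 0.91 and 0.78 on the log2 scale. ATF4 and DDIT3 did not pass (log2 fold changes 0.12, adjusted p = 0.16 and -0.17, adjusted p = 0.24). Among 30 genes of hypoxia and glycolysis 5 were higher and 5 lower (16.7% each, near the shares of all genes, and 3 higher without siNS replicate 1 or siHP1γ replicate 3). CA12, a carbonic anhydrase, rose from 14.8, 13.9 and 15.1 to 33.8, 31.7 and 29.0 CPM (log2 fold change 1.11, SE 0.095, adjusted p = 2.7e-09) and VEGFA from 77.1, 88.4 and 88.0 to 134, 131 and 129 CPM (log2 fold change 0.64, SE 0.068, adjusted p = 1.0e-07), while ADM, of the same list, was a leading decrease. Of 33 splicing factors 12 were lower and 1 higher (7 lower without siNS replicate 1, and 4 higher and 5 lower when scaled by library size alone), with HNRNPA1 down from 168, 139 and 159.7 to 108, 104 and 107 CPM (log2 fold change -0.55, SE 0.083, adjusted p = 1.5e-05).

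Core histone genes and protocadherins were higher more often than lower, at low levels. The shares higher were 30.8% and 43.8%, against 16.5% of all genes. Of 13 tested core histone genes 4 were higher and none lower, among them H2BC21 at 4.53, 3.57 and 4.97 against 10.8, 7.11 and 10.3 CPM (log2 fold change 1.11, SE 0.19, adjusted p = 8.9e-05) and H2BC5 at 16.0, 16.9 and 14.7 against 29.8, 27.3 and 25.3 CPM (log2 fold change 0.79, SE 0.13, adjusted p = 3.7e-05). Of 32 tested clustered protocadherins, adhesion molecules whose isoforms are chosen from gene arrays, 14 were higher and 1, PCDHA13 (log2 fold change -1.22, adjusted p = 0.019), lower (none lower without siHP1γ replicate 1 or 2 or siNS replicate 3), with a median of 0.49. PCDHGA4 rose from 1.10, 2.14 and 1.76 to 4.77, 3.74 and 4.41 CPM (log2 fold change 1.35, SE 0.24, adjusted p = 1.4e-04). Protocadherin genes of the α array, and likewise those of the γ array, share their last exons. Reads of those exons cannot be assigned to a member, and the count of members is uncertain. Of the β array 5 of 14 tested were higher, and of the γ array 9 of 13. Of the MAGE genes, antigens normally silent outside the germ line, 1 of 2 tested was lower (MAGEA12, log2 fold change -0.74, adjusted p = 0.023, a call lost without siHP1γ replicate 1 or siNS replicate 2), and none of 37 mitochondrially encoded symbols could be tested.

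Zinc-finger genes, which encode the largest family of DNA-binding repressors and many of which lie in HP1-bound clusters, were lower more often than higher. Of 440 tested genes with ZNF symbols 36 were higher and 105 lower (8.18% and 23.9%, against 16.5% and 15.2% of all genes), with a median of -0.089. The pattern differed by position. Of the 16 tested ZNF genes between 20 and 30 Mb of chromosome 19, a cluster spanning chr19:20077994-23758891 of hg38, 13 were lower and none higher, with a median of -0.78. This interval was picked after its values were seen, so its count is a description. The 13 log2 fold changes ran from -1.43 to -0.52, and 13 were lower in every alternative tried. Between 30 and 40 Mb, 14 of 28 were lower and 1 higher.

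Within the cluster ZNF714 measured 43.8, 32.8 and 34.6 CPM in siNS and 13.7, 13.4 and 14.1 CPM in siHP1γ cells (log2 fold change -1.43, SE 0.14, adjusted p = 3.2e-08). ZNF724 measured 9.71, 5.91 and 8.49 against 2.97, 3.37 and 3.51 CPM (log2 fold change -1.28, SE 0.20, adjusted p = 1.9e-05), and ZNF675 15.9, 13.1 and 15.6 against 5.94, 6.55 and 6.67 CPM (log2 fold change -1.22, SE 0.16, adjusted p = 2.2e-06). The groups were separate in all 3. The exceptions were ZNF738 (2.65, 2.55 and 3.83 against 4.24, 2.43 and 4.41 CPM, log2 fold change 0.29, adjusted p = 0.47), ZNF493 (log2 fold change -0.32, adjusted p = 0.34) and ZNF429 (0.773, 0.510 and 1.35 against 0.318, 0.374 and 0.540 CPM, log2 fold change -1.05, adjusted p = 0.14). Paralogs of this cluster share sequence, and reads placed on a member could come from another. Among the largest ZNF decreases elsewhere were ZNF695 (5.74, 4.59 and 6.11 to 1.70, 1.59 and 1.35 CPM, log2 fold change -1.82, SE 0.30, adjusted p = 4.7e-05) and ZNF680 (23.7, 20.9 and 22.0 to 6.47, 7.48 and 7.21 CPM, log2 fold change -1.65, SE 0.16, adjusted p = 2.3e-08). Protein coding genes of chromosome 19 outside the family were higher in 21.8% and lower in 6.96% of 632 tested. With Dex 13 of the 16 cluster genes were lower, 12 of them in both treatments.

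The direction of the change without Dex went with base composition. Of 11666 tested protein coding genes on the annotation, those whose longest transcript held under 40% G and C were higher in 6.77% and lower in 28.9% of 2215 cases. From 55 to under 60% the shares were 30.9% higher and 7.80% lower of 1628. With Dex the same bins gave 16.3% higher and 11.8% lower, and 11.3% higher and 12.53% lower. With Dex the share called higher ran the other way, falling from bin to bin from 16.3% under 40% GC to 7.82% at 60% and over. Removing a trend of the fold change on GC percent, an alternative chosen after seeing the data, left 4955 of 13500 genes called (2555 higher and 2400 lower), and among list counts it moved lower ribosomal proteins (from 45 to 55), lower G1/S genes (from 26 to 33), lower collagens and laminins (from 3 to 9), lower hypoxia and glycolysis genes (from 5 to 9) and higher splicing factors (from 1 to 5). In the cytokine list 17 of 20 were then higher and in cholesterol synthesis 17 were lower. The part of base composition in the individual results was not tested beyond this.

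The balance of directions also differed between gene types. Processed pseudogenes were higher in 2.57% and lower in 15.2% of 1091 tested, and long noncoding RNAs higher in 13.8% and lower in 7.17% of 558. Protein coding genes were higher in 19.6% and lower in 16.6%. Chromosome 17 had the largest share of higher genes (24.7% of 761, with 11.6% lower) and chromosome 22 was similar at 23.4% and 9.54%, while chromosome 4 leaned the other way with 13.2% higher and 23.2% lower of 539.

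The same depletion was also made with Dex, in 6 other libraries, which allows the effects to be set side by side. There 11.7% of genes were higher and 12.3% lower. Of the 4860 genes called without Dex, 2298 (47.3%) were called in the same direction with Dex, which was 62.6% of the 3669 called with Dex, 7 were called in the opposite direction and 2555 were not called. Across the 11414 genes averaging 5 CPM or more in the 12 libraries, leaving out CBX3 and its pseudogenes, the log2 fold changes had Pearson's r 0.74 and Spearman's rho 0.64. Genes are not independent replicates, and both effects come from the same siRNA pool. The difference between the effects itself passed an adjusted p of 0.05 for 61 genes (0.399%), 18 with a higher and 43 with a lower log2 fold change with Dex. That count depended on single libraries: it was 20 without siNS Eth replicate 1, 186 without siNS Eth replicate 2, 25 without siNS Eth replicate 3, 26 and 24 without siHP1γ Eth replicate 1 and 3, and 24 without siNS Dex replicate 1 or 3.

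HAS2 was 1 of the 61. Its loss was smaller with Dex, from 19.8, 27.3 and 21.5 CPM in siNS to 9.52, 9.09 and 8.74 CPM in siHP1γ cells (log2 fold change -1.31), a difference of 1.16 (SE 0.16) log2 units with adjusted p = 6.1e-04. ESM1, the secreted proteoglycan endocan, fell without Dex from 33.7, 34.3 and 27.4 to 9.23, 10.0 and 9.46 CPM (log2 fold change -1.73, SE 0.12, adjusted p = 4.4e-11), while with Dex its log2 fold change was -0.36, a difference of 1.37 (SE 0.23) with adjusted p = 0.0030. VSTM2L, at 0.773, 0.815 and 0.932 against 2.12, 2.34 and 2.43 CPM, was higher without Dex (log2 fold change 1.44, SE 0.26, adjusted p = 1.4e-04) and lower with it (log2 fold change -0.40), a difference of -1.84 (SE 0.28) with adjusted p = 0.0011. These 3 differences passed in every alternative tried, each single library left out included.

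PLAT was lower in either treatment, and more so with Dex, at 145, 137 and 166 against 38.4, 42.7 and 44.2 CPM (difference -0.97 (SE 0.14), adjusted p = 8.7e-04). LTBP1 and FN1 were higher without Dex, while their effects with Dex were 0.40 and -0.22 (differences -0.89 (SE 0.13) and -0.86 (SE 0.13), adjusted p = 8.6e-04 and 8.7e-04). KRT7, a keratin of simple epithelia, rose without Dex from 1.77, 3.57 and 3.52 to 6.04, 7.29 and 6.30 CPM (log2 fold change 1.14, SE 0.23, adjusted p = 3.9e-04) and had a log2 fold change of -0.33 with Dex. Its difference, -1.47 (SE 0.28) with adjusted p = 0.015, was lost without siNS Eth replicate 1, siHP1γ Eth replicate 2 or siNS Dex replicate 1. For CBX3 itself the difference was 0.63 (SE 0.15, adjusted p = 0.068), and the siHP1γ mean with Dex was 5.96% of the siNS mean.

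**Figure D2:**
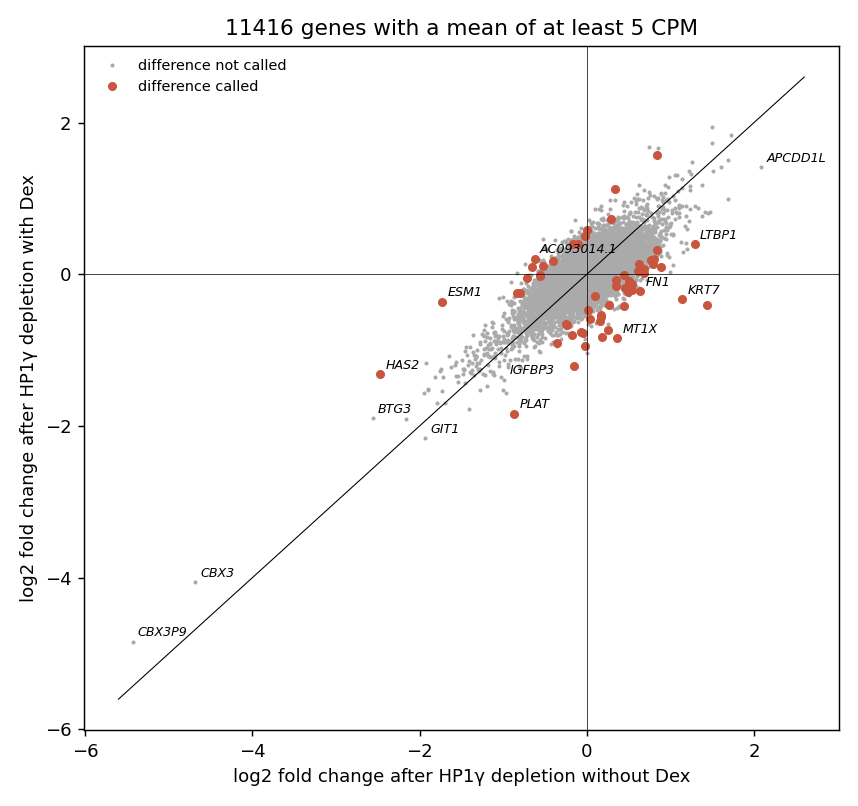
Log2 fold change after HP1γ depletion without Dex (x axis) and with Dex (y axis) for the 11416 genes averaging 5 CPM or more over the 12 libraries, with genes whose difference was called in red and the line of equal effects in black. HAS2 and ESM1 lie above the line among the decreases, and PLAT, FN1, LTBP1 and KRT7 lie below it.

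The other depletion made without Dex was that of PRMT5. It shares the siNS Eth libraries, so effects were compared directly between the depleted cells: 7398 genes (48.4%) differed between siHP1γ Eth and siPRMT5 Eth. CBX3 was at 225, 218 and 229 CPM in siPRMT5 cells. HAS2 was at 21.7, 24.4 and 22.3 CPM there, between the siNS and siHP1γ levels, and siHP1γ cells were lower than siPRMT5 cells (log2 difference -1.27, adjusted p = 1.9e-09). BTG3 and SCML1 were at 39.9, 33.1 and 36.9 and 113, 119 and 116 CPM after PRMT5 depletion, with siHP1γ cells lower by log2 differences of -2.84, adjusted p = 7.8e-15 and -2.58, adjusted p = 8.0e-15. ESM1 and OSTM1 differed by less, 0.27, adjusted p = 0.11 and -0.26, adjusted p = 0.10, and did not pass, which does not show equal levels.

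Against the shared siNS Eth libraries, the median log2 fold change after HP1γ and after PRMT5 depletion was -0.33 and -0.31 for G1/S genes, 0.49 and 0.62 for protocadherins, 0.59 and 0.27 for cytokines, -0.34 and 0.0045 for cholesterol synthesis and -0.31 and 0.50 for interferon-stimulated genes. Single genes of the lists were compared between the depleted cells. IFIT1 was at 341, 340.0 and 301 CPM in siPRMT5 cells, above every siHP1γ library (log2 difference -1.53, adjusted p = 5.4e-15), and OASL at 48.9, 50.2 and 51.3 CPM (log2 difference -1.80, adjusted p = 1.1e-12). HMGCS1 was at 734, 704 and 811 CPM (log2 difference -0.88, adjusted p = 1.3e-10), and RPS20 at 1006, 929 and 868 CPM (log2 difference -1.21, adjusted p = 1.4e-11). Of the chromosome 19 cluster, 12 of 16 genes were lower in siHP1γ than in siPRMT5 cells. IGFBP3, at 63.3, 62.7 and 64.0 CPM, was the reverse, higher in siHP1γ than in siPRMT5 cells (log2 difference 0.65, adjusted p = 1.1e-07), and so was CCBE1 at 18.7, 20.9 and 17.4 CPM (log2 difference 0.52, adjusted p = 7.2e-05). PLAT, at 18.7, 21.2 and 17.2 CPM, did not pass (log2 difference 0.27, adjusted p = 0.062).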

How the data were processed

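RNA-seq counts of 18 libraries (3 each of siNS, siHP1γ and siPRMT5 cells, with Eth or Dex) were analysed. The authors deposited raw read counts per gene symbol, 1 table per library, made per the labels and the study's methods from Lexogen libraries aligned with Bowtie2 2.4.2 to hg 38 and counted with HTSeq 0.9.1. Bowtie2 does not split reads over introns, which loses junction reads and can favor intronless pseudogenes. Annotation and strand setting are not given in the sources used here. A deposited table of the authors' own comparisons (DESeq2 2.11.40.7 fold changes and adjusted p-values) was not used.

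Counts were tested with edgeR 4.0.16 in R 4.3.3: glmQLFit over all 18 libraries with 1 mean per condition, TMM scaling and filterByExpr, which left 15298 of 60642 symbols and 12 residual degrees of freedom. Contrasts were tested with glmQLFTest and adjusted by Benjamini-Hochberg over all genes, called at 0.05 with no fold limit. SE is the log2 fold change divided by the square root of F. CPM are scaled by TMM. The fit and calls were tested on simulated data. Groups came from the labels. Total counts were 8682992 to 12472381 per library.

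Named genes were those the study names, the 12 largest increases and 12 largest decreases among called genes averaging 5 CPM or more, changed in every same-numbered pair, up to 4 called members per list with at least 1 CPM, the 3 largest differences with Dex per direction, and list members whose level is given as a description or that account for a small count, chosen after their values were seen. Members and lists were chosen with earlier results of these data known. Gene lists were described by counts and medians. Some genes that the rules name, and the list built on 1 of them, are not reported here. Of tested symbols 13500 (88.2%) matched the GENCODE annotation on hg38, which gave positions, gene types and GC percent. Promoters are RefSeq windows. Alternatives were DESeq2 1.42.0, its size factors, library size alone, no or a stricter filter (10 counts), a replicate block, the libraries of the comparison alone, each library left out, a 1.5-fold limit and unadjusted p, and, chosen after seeing the data, removal of a GC trend (lowess of base R, span 0.3).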

Additional observations from a re-analysis of the deposited data

Results flagged for a closer look

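For 15 named genes the effect of HP1γ depletion differed between cells without and with Dex (interaction term of edgeR's quasi-likelihood fit, adjusted p under 0.05 over all genes). Each value is the log2 fold change with Dex minus that without Dex.

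A higher log2 fold change with Dex was seen for ESM1 (1.37, adjusted p = 0.0030), HAS2 (1.16, adjusted p = 6.1e-04), AC093014.1 (0.83, adjusted p = 0.028), CXCL8 (0.73, adjusted p = 0.036), RPL22L1 (0.55, adjusted p = 0.044) and the growth factor HBEGF (0.44, adjusted p = 0.040). CXCL8 was 11.9, 11.98 and 11.9 CPM in siNS and 41.3, 30.3 and 34.4 CPM in siHP1γ cells with Dex, so that its rise of 0.84 log2 units without Dex was 1.57 with Dex.

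A lower log2 fold change with Dex was seen for VSTM2L (-1.84, adjusted p = 0.0011), KRT7 (-1.47, adjusted p = 0.015), the metallothionein MT1X (-1.21, adjusted p = 0.017), TSC22D3 (-1.003, adjusted p = 0.0010), PLAT (-0.97, adjusted p = 8.7e-04), LTBP1 (-0.89, adjusted p = 8.6e-04), FN1 (-0.86, adjusted p = 8.7e-04), PER1 (-0.75, adjusted p = 0.020) and SGK1 (-0.55, adjusted p = 0.021). TSC22D3, PER1, SGK1 and MT1X are known glucocorticoid targets. TSC22D3 measured 19.8, 17.8 and 19.4 CPM in siNS and 21.6, 21.2 and 21.7 CPM in siHP1γ cells without Dex, and 238, 198 and 271 against 127, 128 and 147 CPM with Dex.

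The differences of HAS2, ESM1, VSTM2L, PLAT, FN1, LTBP1 and TSC22D3 passed in every alternative tried. Those of AC093014.1 (12 of 18 alternatives), KRT7 (16 of 19), MT1X (15 of 19), SGK1 (15 of 20), PER1 (14 of 20), CXCL8, HBEGF and RPL22L1 (11 of 20 each) did not, and kept their sign throughout.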

How the results depend on the processing

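The count of 4860 genes changed without Dex was 4368 with DESeq2, 5012 with libraries scaled by size alone, 4462 with no filter, 5436 with edgeR and 4180 with DESeq2 on the 6 Eth libraries alone, 4955 with the GC trend removed, and 3749 to 4524 with 1 library left out. It was 1507 with a 1.5-fold limit (813 higher and 694 lower) and 6262 at an unadjusted p. The higher share of called genes was 63.8% when scaled by library size alone. The log2 fold changes of CBX3 (-4.75 to -4.58) and HAS2 (-2.51 to -2.34) passed in every alternative. The 7398 genes that differed from siPRMT5 Eth ranged from 6773 to 7427.

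The 61 genes whose change differed with Dex were 327 with DESeq2, 374 with no filter, 94 with the replicate block, 100 with the GC trend removed, and 20 to 186 with 1 library left out. The cause of these moves was not tested. Of 193 further genes chosen by the naming rules and called without Dex, 167 kept their call in every alternative, and of their 2866 values 99 lost the threshold and none reversed.

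Same-numbered replicates of the siNS Eth and siHP1γ Eth groups did not deviate together (correlations of deviations -0.10, -0.041 and -0.0073). With 3 libraries a group these values cannot show whether same-numbered samples were paired, and the main fit did not pair them. With the replicate block 4877 genes were called without Dex. At 8682992 to 12472381 counts per library, few counts stand behind a value under 1 CPM. Reads of CBX3 pseudogenes, ribosomal pseudogenes, ZNF paralogs and protocadherins cannot be assigned with certainty.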
